A study of Mus musculus with 16 samples.

Results

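Transcripts of 10 genes that form and restrain NF-κB were followed in brain macrophages of bone marrow chimeras. They were the subunit genes Nfkb1, Nfkb2, Rel and Relb, the IκB genes Nfkbia, Nfkbie and Nfkbiz, and 3 further inhibitors, Tnfaip3, Zc3h12a and Irak3. All 10 were found by symbol among the 24411 genes of the count table, each in a single row and with reads in all 16 libraries. The mice were wild-type C57BL/6J animals that had been irradiated with 950 cGy and given donor marrow, and every group shares this treatment. In 4 mice (numbered 1 to 4) LPS was injected at 2.5 mg/kg and cells were taken 12 h later. The other 4 mice (5 to 8) were controls without LPS, and whether they received a vehicle injection is not stated. From each brain, CD45.1lo cells of the graft (engrafted cells) and CD45.2lo cells of the host (host microglia) were sorted separately as Ly6C/G-negative CD11b+ cells, which gave 4 groups of 4 libraries. Host microglia had been in the irradiated animal and engrafted cells had not, so that cell origin and exposure to radiation cannot be told apart. By the study's text the cells were taken 9 months after transplantation, while the labels allow 3.5 or 9 months and name neither for a mouse.

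NF-κB is a family of dimeric transcription factors assembled from RelA, RelB, c-Rel and the processed products of Nfkb1 and Nfkb2. IκB proteins hold these dimers inactive until a signal, such as LPS of Gram-negative bacteria acting through Toll-like receptor 4, triggers IκB degradation. The freed dimers then induce inflammatory genes together with several of their own subunits and inhibitors, and in macrophages and microglia this feedback is known for limiting how long the response lasts.

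Between 395283 and 1203597 reads per library fell on genes, the lowest number in the engrafted library of LPS mouse 4. Levels are given as CPM, the reads of a gene per 1e6 reads of the library, after TMM scaling over the 16 libraries, and 3 reads, the limit that a count of 0 allows, corresponded to 2.39 to 8.41 CPM. Limits of this kind cover counting error only. All 6 microglia markers (P2ry12, Tmem119, Siglech, Fcrls, Cx3cr1 and Csf1r) were present in every group, with sums of 12626 to 13861 CPM in unchallenged engrafted cells, 16811 to 19575 CPM in unchallenged host microglia, 4618 to 5932 CPM in engrafted cells after LPS and 8289 to 9562 CPM in host microglia after LPS. The summed level of 6 monocyte markers (Ly6c2, Ccr2, Plac8, Chil3, Vcan and F13a1) was 197 to 324 CPM in unchallenged engrafted cells and 1085 to 2140 CPM after LPS, against 9.57 to 25.5 CPM and 11.5 to 23.6 CPM in host microglia, where Chil3 was at 0 in the unchallenged group. Ccr2 ran against this sum in engrafted cells, at 84.6 to 227 CPM without and 31.7 to 62.5 CPM with LPS. The sum of 8 neutrophil markers was 288 to 1350 CPM and 74.4 to 503 CPM in engrafted cells without and with LPS and 146 to 275 CPM and 61.9 to 99.0 CPM in host microglia. Nearly all of the host sum without LPS was Csf3r, at 146 to 273 CPM against 79.6 to 136 CPM in engrafted cells. The granule and calprotectin genes ran the other way. In unchallenged engrafted cells S100a8 was at 66.5 to 251 CPM, S100a9 at 73.8 to 514 CPM, Camp at 23.4 to 152 CPM, Ngp at 10.8 to 206 CPM and Ltf at 7.20 to 90.1 CPM. Each of these genes was at no more than 1.60 CPM in unchallenged host microglia. Ly6g was at 0 in both host groups and reached at most 2.80 CPM in engrafted cells.

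Promoter windows of RefSeq (GRCm38.p6), each 250 bases before to 50 bases after a transcription start, were matched to 7 of the 10 genes, all but Nfkbiz, Nfkb1 and Relb. The κB consensus, the 10-base motif bound by NF-κB dimers, was searched on both strands of the windows. It was present in a window of 5 of the 7 genes, against 5.14% of the 27025 genes with a window, 5.55% of the genes of the count table and 8 of 22 NF-κB target genes. A match describes the letters of a window and not binding in these cells. The 150 bases before the start of each of the 5 genes are shown 5′ to 3′ because they carry these matches, written in capitals. Where a gene has several windows, the stretch of the first is shown, and the further windows of Nfkb2 also held matches.
Tnfaip3: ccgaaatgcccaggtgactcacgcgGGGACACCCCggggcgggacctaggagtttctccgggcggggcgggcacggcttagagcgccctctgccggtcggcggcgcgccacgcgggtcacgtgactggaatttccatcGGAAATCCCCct
Nfkbia: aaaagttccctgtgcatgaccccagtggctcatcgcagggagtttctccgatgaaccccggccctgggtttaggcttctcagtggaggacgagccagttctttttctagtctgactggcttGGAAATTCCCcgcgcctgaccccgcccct
Nfkbie: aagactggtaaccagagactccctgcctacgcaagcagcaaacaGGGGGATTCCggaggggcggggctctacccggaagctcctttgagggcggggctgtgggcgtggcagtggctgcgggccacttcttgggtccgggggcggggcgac
Nfkb2: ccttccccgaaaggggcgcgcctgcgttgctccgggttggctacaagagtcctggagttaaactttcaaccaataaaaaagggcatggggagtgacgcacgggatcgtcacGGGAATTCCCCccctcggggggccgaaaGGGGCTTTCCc
Rel: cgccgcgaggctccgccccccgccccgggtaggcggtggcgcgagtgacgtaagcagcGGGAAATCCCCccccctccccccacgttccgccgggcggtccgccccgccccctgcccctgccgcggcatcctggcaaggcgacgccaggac
The stretches lie at chr10:19015411-19015560 (minus strand) for Tnfaip3, chr12:55492648-55492797 (minus strand) for Nfkbia, chr17:45555550-45555699 (plus strand) for Nfkbie, chr19:46304587-46304736 (plus strand) for Nfkb2 and chr11:23770970-23771119 (minus strand) for Rel. Tnfaip3 had matches beginning at positions -125 and -12 from the start. A single match stood at -29 in Nfkbia and at -106 in Nfkbie. In Nfkb2, overlapping matches of both strands at -39 and -38 preceded another at -11, and in Rel overlapping matches stood at -92 and -91. The windows of Irak3 and Zc3h12a held no match. Gene positions given with the levels are those of mm9, another build.

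After LPS, 7 of the 10 genes were called higher in engrafted cells and 4 in host microglia, and none was called lower in either population. A gene was called at more than a 2-fold change and an adjusted p below 0.05, by the quasi-likelihood test of edgeR and Benjamini and Hochberg's method over all genes tested. Of all genes tested, 10.2% were called higher with LPS in engrafted cells and 7.66% in host microglia, and 11.3% and 10.4% were called lower. Tnfaip3, Zc3h12a and Irak3 were called in both populations, Nfkbia, Nfkbie, Nfkb2 and Relb in engrafted cells, and Nfkbiz in host microglia. In host microglia Irak3 passed the filter on low counts through its LPS libraries alone. By adjusted p alone, 7 genes were higher in host microglia as well, since Nfkbia, Nfkb2 and Relb stayed under 2-fold there, and 19.2% of all genes were higher by that rule. Of these, Nfkb2 was above the threshold in the joint fit (adjusted p = 0.0604, edgeR) and without the host library of mouse 1 (0.0805) or mouse 7 (0.0670), and Relb without that of mouse 1 (0.0514), mouse 2 (0.0753) or mouse 6 (0.0701). The median log2 fold change of the 10 genes was 1.26 in engrafted cells and 0.90 in host microglia, beside -0.01 and 0.01 for all genes tested. These are bulk libraries, in which fewer cells of a type and less RNA per cell cannot be told apart.

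**Figure D1:**
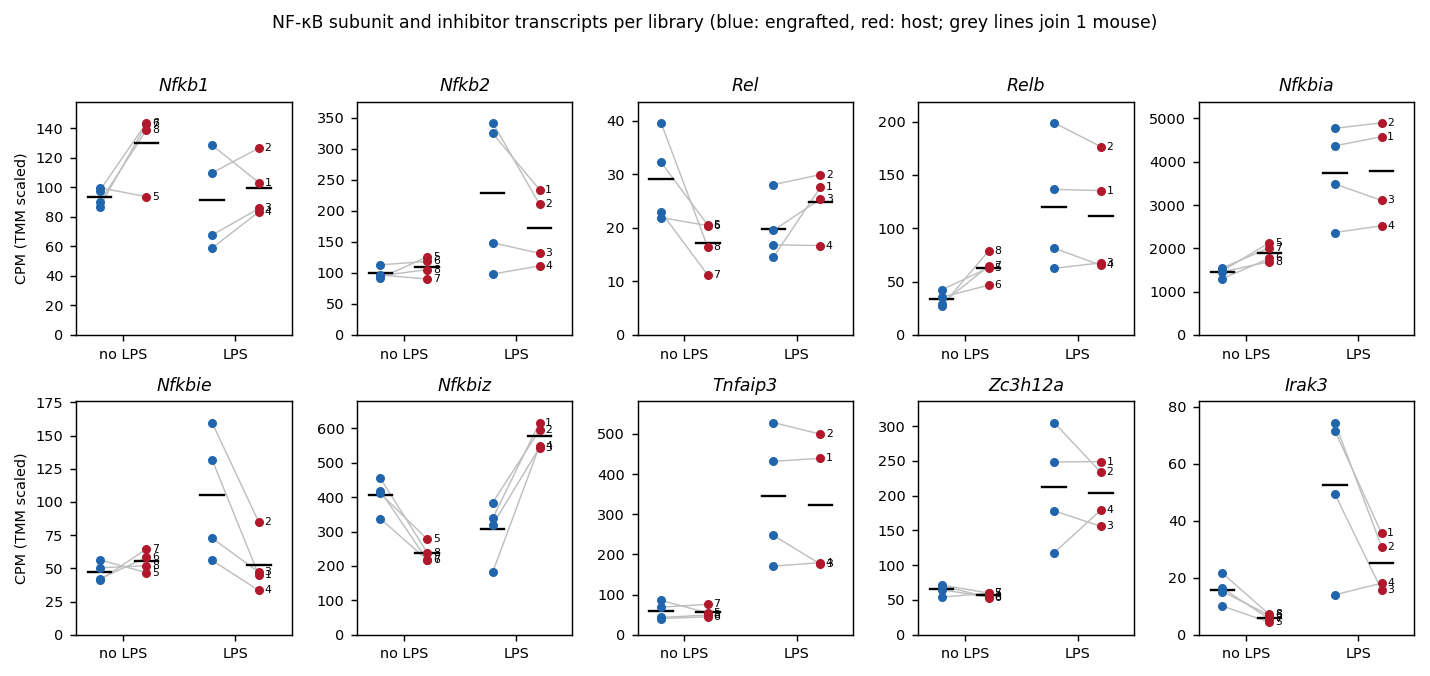
Level of each gene in CPM (vertical axis from 0, one panel per gene) in engrafted cells (blue) and host microglia (red) without and with LPS; each point is a library, numbers name the mouse, grey lines join both libraries of a mouse and black bars are group means (n = 4). Tnfaip3 in all 8 LPS libraries lies above all 8 unchallenged libraries, and the lines of Nfkbiz slope down without LPS and up with LPS.

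The subunit genes differed in their behaviour. Nfkb2 (NM_019408, chromosome 19, 46380185 to 46386580, plus strand, mm9) encodes p100, the precursor of p52. It was counted at 91.7, 113, 96.7 and 95.4 CPM in unchallenged engrafted cells of mice 5 to 8 and at 324, 342, 148 and 98.1 CPM in those of LPS mice 1 to 4. Host microglia held 126, 118, 90.1 and 105 CPM without LPS and 234, 210.4, 132 and 111 CPM with it. Mice 1 and 2 carried the high values in both populations, whereas mouse 4 lay within the unchallenged range. The log2 fold change with LPS was 1.19 in engrafted cells (standard error, SE, 0.28, and adjusted p = 0.00212 by edgeR) and 0.65 in host microglia (SE 0.20, adjusted p = 0.0148, edgeR). Without the engrafted LPS library of mouse 1 or of mouse 2 the first value was 1.00 or 0.96 and no longer passed the fold threshold, and on the study's log2 scale with limma it was 0.89.

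Relb (NM_009046, chromosome 7, 20191571 to 20214787, minus strand) encodes RelB, the usual partner of p52. Its engrafted libraries held 42.3, 35.4, 29.5 and 27.0 CPM without LPS and 136, 199, 62.5 and 81.3 CPM with LPS, with no overlap. In host microglia the values were 63.0, 46.6, 64.6 and 78.6 CPM without and 135, 176, 67.6 and 65.4 CPM with LPS, so that mice 3 and 4 did not leave the unchallenged range. Relb rose in engrafted cells by a log2 fold change of 1.79 (SE 0.30, adjusted p = 9.43e-05, edgeR), whereas the value in host microglia was 0.82 (SE 0.26, adjusted p = 0.0152, edgeR). Without the host LPS library of mouse 3 the host value passed the fold threshold, at 1.01. The difference between both responses, 0.96 with a standard error of 0.44, was not past the threshold (adjusted p = 0.226, edgeR). With the mouse as a replicate block it was 0.94 at an adjusted p of 0.0377 (edgeR), under 2-fold and so not called. Without the filter on low counts it was called at 1.00 (adjusted p = 0.0234, edgeR).

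Nfkb1 (NM_008689, chromosome 3, 135247619 to 135354511, minus strand) encodes p105, the precursor of p50. It was counted at 99.7, 97.8, 86.8 and 90.0 CPM in unchallenged and at 129, 109.8, 67.7 and 58.9 CPM in LPS-treated engrafted cells. Host microglia had 93.7, 144, 143 and 139 CPM without and 103, 127, 85.7 and 83.5 CPM with LPS. All neighbouring groups overlapped, and neither the change in engrafted cells (log2 fold change -0.04, adjusted p = 0.900, edgeR) nor that in host microglia (-0.39, adjusted p = 0.0800, edgeR) passed the test.
Rel (NM_009044, chromosome 11, 23641729 to 23670970, minus strand), the gene of c-Rel, was read 6 to 32 times per library. Its levels were 32.2, 21.9, 22.9 and 39.6 CPM in unchallenged engrafted cells and 20.5, 20.4, 11.2 and 16.3 CPM in unchallenged host microglia, with no overlap. After LPS they were 14.5, 28.1, 19.5 and 16.8 CPM and 27.5, 29.9, 25.4 and 16.7 CPM, which overlap. The log2 fold change with LPS was -0.59 in engrafted cells (SE 0.31, adjusted p = 0.143, edgeR) and 0.58 in host microglia (SE 0.28, adjusted p = 0.103, edgeR), and their difference of -1.17 did not pass (adjusted p = 0.0946, edgeR). Rela, which encodes the remaining subunit and is no member of the group, stood at 156 ± 18.2, 190 ± 19.1, 193 ± 38.8 and 212 ± 38.4 CPM (SD, n = 4) in unchallenged engrafted cells, unchallenged host microglia, LPS engrafted cells and LPS host microglia and was called in neither population.

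The cytoplasmic inhibitors Nfkbia and Nfkbie were both called in engrafted cells. Nfkbia (NM_010907, chromosome 12, 56590396 to 56593634, minus strand) encodes IκBα, the inhibitor that is degraded and resynthesized first. It was counted at 1481, 1301, 1548 and 1458 CPM in unchallenged engrafted cells and at 2127, 1768, 2013 and 1690.1 CPM in unchallenged host microglia. With LPS the values were 4367, 4771, 3487 and 2366 CPM in engrafted cells and 4578, 4899.5, 3108 and 2522 CPM in host microglia. Each LPS library was thus above each unchallenged library of either population, and both populations were highest in mice 1 and 2. The log2 fold change was 1.33 in engrafted cells (SE 0.20, adjusted p = 2.28e-05, edgeR) and 0.98 in host microglia (SE 0.18, adjusted p = 0.000160, edgeR), the second only just under 2-fold. It was called there at 1.07, 1.13 or 1.04 when the host library of LPS mouse 3, of LPS mouse 4 or of unchallenged mouse 5 was left out, and at 1.01 without a filter on low counts.

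Nfkbie (NM_008690, chromosome 17, 45692649 to 45700117, plus strand) encodes IκBε, which holds RelA and c-Rel dimers and is resynthesized more slowly. Without LPS it was counted at 56.4, 42.1, 41.0 and 50.4 CPM in engrafted cells and at 46.8, 58.3, 64.6 and 52.1 CPM in host microglia. With LPS the engrafted libraries held 132, 159.8, 72.9 and 56.1 CPM and the host libraries 44.7, 84.7, 47.1 and 33.4 CPM. In mouse 4 the engrafted value was still within the unchallenged range, while in host microglia only that of mouse 2 was above it. The log2 fold change with LPS was 1.13 in engrafted cells (SE 0.27, adjusted p = 0.00206, edgeR) and -0.08 in host microglia (SE 0.23, adjusted p = 0.813, edgeR). Without the engrafted library of mouse 2 the first value was 0.89, under the fold threshold, and with limma on the study's scale it was 0.88. The difference between both responses was 1.21 (SE 0.38) and narrowly missed the threshold (adjusted p = 0.0536, edgeR). With the mouse as a replicate block it was 1.18 and passed (adjusted p = 0.0111, edgeR), as it did without the host library of mouse 2 (1.55) or the engrafted library of mouse 3 (1.39) or mouse 4 (1.36).

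Nfkbiz (NM_001159394, chromosome 16, 55811490 to 55822251, minus strand) encodes IκBζ, a nuclear IκB that works as a cofactor at a subset of inflammatory genes. In the fit with TMM scaling and no term for the mouse, it was the only one of the 10 genes whose response differed between both populations past the test. With the mouse as a replicate block, with RLE size factors or with DESeq2, Nfkbie passed as well. Unchallenged engrafted cells held 411, 418, 338 and 455 CPM and unchallenged host microglia 278, 218, 218 and 239 CPM. With LPS the order was turned, with 339, 384, 320.1 and 182 CPM in engrafted cells and 617, 595, 544 and 549 CPM in host microglia. The populations did not overlap in either condition, and the host libraries after LPS were above every other library. Nfkbiz rose in host microglia by a log2 fold change of 1.27 (SE 0.14, adjusted p = 3.7e-07, edgeR), and the value in engrafted cells was -0.44 (SE 0.20, adjusted p = 0.0975, edgeR). The interaction of population and LPS was -1.71 (SE 0.25, adjusted p = 8.34e-05, edgeR), beside 4.95% of all genes called in either direction and 2.5% called lower. With each library left out in turn it ranged from -1.81 to -1.55. The 6 monocyte markers summed to 11.5 to 23.6 CPM in the host libraries after LPS and to 1085 to 2140 CPM in the engrafted libraries, and their part in the interaction was not tested.

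**Figure D2:**
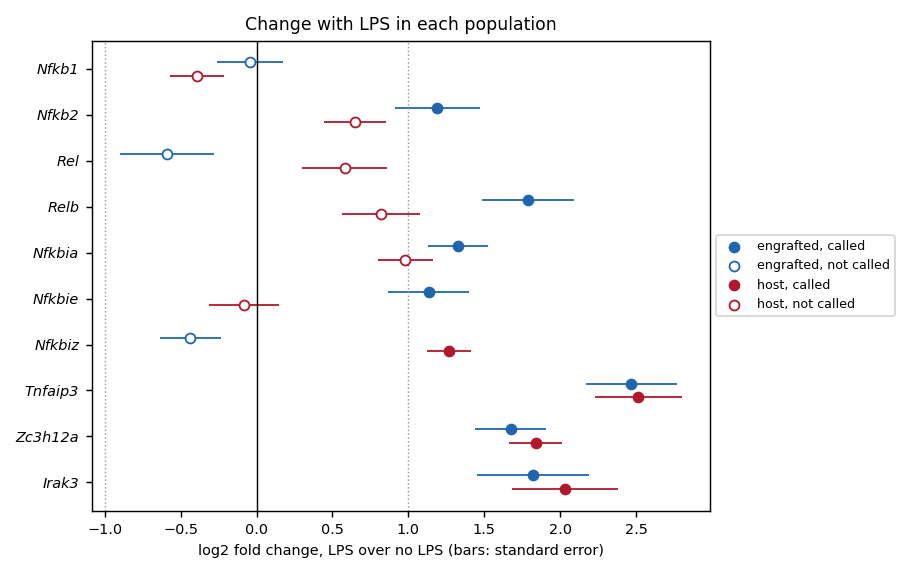
Log2 fold change with LPS (horizontal axis, bars are standard errors) of each gene in engrafted cells (blue) and host microglia (red); filled points were called, open points were not, and dotted lines mark a 2-fold change. Nfkbiz lies at -0.44 in engrafted cells and 1.27 in host microglia, while both points of Tnfaip3 lie near 2.5.

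The remaining inhibitors act on the signal or on the transcripts it produces, and all 3 were called in both populations. Tnfaip3 (NM_009397, chromosome 10, 18720717 to 18735216, minus strand) encodes A20, an enzyme that edits ubiquitin chains upstream of the IκB kinases. It was counted at 85.6, 40.5, 68.8 and 43.2 CPM in unchallenged engrafted cells and at 54.2, 44.7, 75.8 and 49.0 CPM in unchallenged host microglia. LPS libraries held 432, 528, 247 and 171 CPM in engrafted cells and 439, 499.5, 176 and 179 CPM in host microglia, so that every LPS library exceeded every unchallenged one and mice 1 and 2 exceeded mice 3 and 4 in both populations. Tnfaip3 rose by a log2 fold change of 2.47 in engrafted cells (SE 0.30, adjusted p = 2.19e-06, edgeR) and 2.51 in host microglia (SE 0.29, adjusted p = 4.01e-07, edgeR), the largest changes among the 10 genes in either population. The responses differed by -0.05 with a standard error of 0.47 (adjusted p = 0.974, edgeR), and the sign of this difference was not stable.

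Zc3h12a (NM_153159, chromosome 4, 124795658 to 124805125, minus strand) encodes Regnase-1, a ribonuclease that degrades cytokine mRNAs. Engrafted libraries held 71.5, 70.8, 54.1 and 64.8 CPM without LPS and 248, 305, 178 and 118 CPM with LPS. Host libraries held 60.0, 53.4, 59.8 and 54.1 CPM without and 249, 233, 156 and 179 CPM with LPS. There was no overlap between conditions, and the log2 fold changes were 1.67 (SE 0.23, adjusted p = 1.1e-05, edgeR) in engrafted cells and 1.84 (SE 0.18, adjusted p = 3.28e-08, edgeR) in host microglia.

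Irak3 (NM_028679, chromosome 10, 119578710 to 119638593, minus strand) encodes IRAK-M, a relative of the IRAK kinases that dampens Toll-like receptor signalling. It had the fewest reads, between 3 and 64 per library. Its levels were 10.1, 15.2, 16.4 and 21.6 CPM in unchallenged engrafted cells and 4.39, 6.80, 5.58 and 7.15 CPM in unchallenged host microglia. With LPS they were 71.6, 74.4, 49.4 and 14.0 CPM in engrafted cells and 35.6, 30.9, 15.7 and 18.1 CPM in host microglia. The engrafted library of mouse 4, the shallowest of all with 5 reads of Irak3, remained in the unchallenged range, whereas host microglia showed no overlap. The log2 fold change was 1.82 in engrafted cells (SE 0.37, adjusted p = 0.000557, edgeR) and 2.03 in host microglia (SE 0.35, adjusted p = 7.4e-05, edgeR). Unchallenged host libraries held 3 to 7 reads of Irak3, under the minimum count of 10 of the filter. Irak3 was thus tested in host microglia through its LPS libraries alone, and its call there is not independent of the filter.

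Without overlap between conditions, 4 of the 10 genes were higher with LPS in engrafted cells (Tnfaip3, Nfkbia, Relb and Zc3h12a) and 5 in host microglia (Tnfaip3, Nfkbia, Nfkbiz, Zc3h12a and Irak3, the last tested there through its LPS libraries alone). Among all genes tested this held for 18.3% in engrafted cells and 17.1% in host microglia. Mice differed more from each other with LPS in some genes. The highest of the 4 engrafted libraries of Tnfaip3 was 2.12 times the lowest without LPS and 3.09 times the lowest with LPS, and for Nfkb2 the corresponding ratios were 1.23 and 3.48. In Nfkbiz of host microglia, by contrast, the ratio was 1.28 without and 1.13 with LPS.

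Engrafted cells were next set directly against host microglia. Without LPS, none of the 9 genes tested was called in either direction by edgeR, where 11% of all genes were called. At an adjusted p below 0.05 and under 2-fold, Nfkbiz and Rel were higher in engrafted cells, and Nfkbia, Nfkb1 and Relb were lower, which makes 5 of 9 beside 27.3% of all genes at that threshold. Of these 5, Nfkbiz alone stayed below 0.05 in all 16 alternatives. The largest of these differences were in Rel, with a log2 fold change of 0.86 (SE 0.30, adjusted p = 0.0310, edgeR), Nfkbiz, with 0.83 (SE 0.14, adjusted p = 3.8e-05, edgeR), and Relb, with -0.82 (SE 0.21, adjusted p = 0.00456, edgeR). Nfkbiz and Rel were higher in the engrafted cells of 4 of 4 mice, and Nfkbia and Relb in those of 0 of 4 mice. For these 4 genes the libraries of both populations did not overlap, against 26.6% of all genes tested. Nfkbia differed by -0.34 (SE 0.11, adjusted p = 0.0214, edgeR) and Nfkb1 by -0.42 (SE 0.15, adjusted p = 0.0310, edgeR). With all 16 libraries in one fit, the adjusted p of each gene that was lower rose above 0.05, to 0.0867 for Relb, 0.130 for Nfkb1 and 0.225 for Nfkbia (edgeR). With the mouse as a replicate block Nfkb1 was at -0.40 (adjusted p = 0.0555, edgeR), and with DESeq2 the adjusted p was 0.0795 for Nfkb1 and 0.0565 for Rel, which also missed the threshold with library totals (0.0508) and limma (0.0731). Leaving out a library took Nfkbia up to 0.0811 (edgeR; engrafted cells of mice 6 and 8, host microglia of mice 5 and 7), Nfkb1 up to 0.0964 (either library of mice 6, 7 and 8) and Rel up to 0.119 (engrafted cells of mice 5 and 8, host microglia of mice 7 and 8). Irak3 did not pass the filter on low counts in this comparison. It was higher in engrafted cells by 1.24 in the mean of log2(CPM + 1), in 4 of 4 mice (p = 0.029 in an exact permutation test, two-sided, which is the minimum for groups of 4), and was called in the joint fit that took Relb, Nfkb1 and Nfkbia past 0.05, at 1.35 (adjusted p = 0.0385, edgeR), or without the filter, at 1.32 (adjusted p = 0.0337, edgeR). With 1 library left out Irak3 passed the filter in 4 fits and was called in 3 of them, but not without the engrafted library of mouse 8 (1.18, adjusted p = 0.0540, edgeR). The monocyte sums of 197 to 324 CPM and the levels of S100a8 and S100a9 in these engrafted libraries were above those of the host libraries, and their part in the differences was not tested.

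After LPS, Nfkbie and Irak3 were called higher in the engrafted population, which is 2 of 10 genes beside 6.73% of all genes tested, and none was called lower, beside 4.34%. Nfkbie was higher by a log2 fold change of 1.04 (SE 0.30, adjusted p = 0.0230, edgeR), in 4 of 4 mice and by 0.62 to 1.54 within a mouse on the log2(CPM + 1) scale. Irak3 was higher by 1.15 (SE 0.35, adjusted p = 0.0282, edgeR), in 3 of 4 mice. With the mouse as a replicate block both stayed called. Nfkbie was then at 1.01 (adjusted p = 0.00177, edgeR) and Irak3 at 1.09 (adjusted p = 0.00718, edgeR), close to the fold threshold. In fits without the block, both calls rested on a narrow margin. The value of Nfkbie fell under the threshold without the engrafted library of mouse 1 (0.93) or mouse 2 (0.79) or the host library of mouse 1 (0.96), mouse 3 (0.98) or mouse 4 (0.89), and that of Irak3 was not called without the engrafted library of mouse 1 (0.99) or mouse 2 (0.97) or the host library of mouse 3 (0.97) or mouse 4 (1.04, adjusted p = 0.0730, edgeR). With library totals in place of TMM, which moved the median of all genes tested from -0.01 to -0.16 and their calls from 528 higher and 340 lower to 448 higher and 471 lower, Nfkbie was at 0.90 and Irak3 at 1.01 (adjusted p = 0.0580, edgeR), and neither was called. Monocyte markers summed to 1085 to 2140 CPM in the engrafted libraries after LPS and to at most 23.6 CPM in the host libraries, and their part in these differences was not tested.

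Nfkbiz was lower in engrafted cells than in host microglia after LPS, in each of the 4 mice and without overlap, by a log2 fold change of -0.88 (SE 0.21, adjusted p = 0.00651, edgeR) that stayed under 2-fold. Within a mouse the difference in log2(CPM + 1) ran from -1.59 to -0.63, and it was called at -1.03 with library totals and at -1.09 with limma on the study's scale. It was the single gene of the 10 whose libraries did not overlap in this comparison, where 20.6% of all genes tested did not. For Tnfaip3, Nfkbia, Relb and Zc3h12a, the log2 fold changes between both populations after LPS lay between 0.01 and 0.14 with standard errors of 0.24 to 0.35, and each of these 4 changed sign with library totals. These standard errors come from a fit without the mouse and include the spread between mice. Within a mouse, the difference in log2(CPM + 1) ran from -0.09 to 0.17 for Nfkbia and from -0.11 to 0.31 for Relb. It ran from -0.07 to 0.49 for Tnfaip3 and from -0.60 to 0.39 for Zc3h12a. With the filter on low counts and no mouse block, the interaction was not past the threshold for Relb (adjusted p = 0.226, edgeR) or Nfkbia (adjusted p = 0.538, edgeR).

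**Figure D3:**
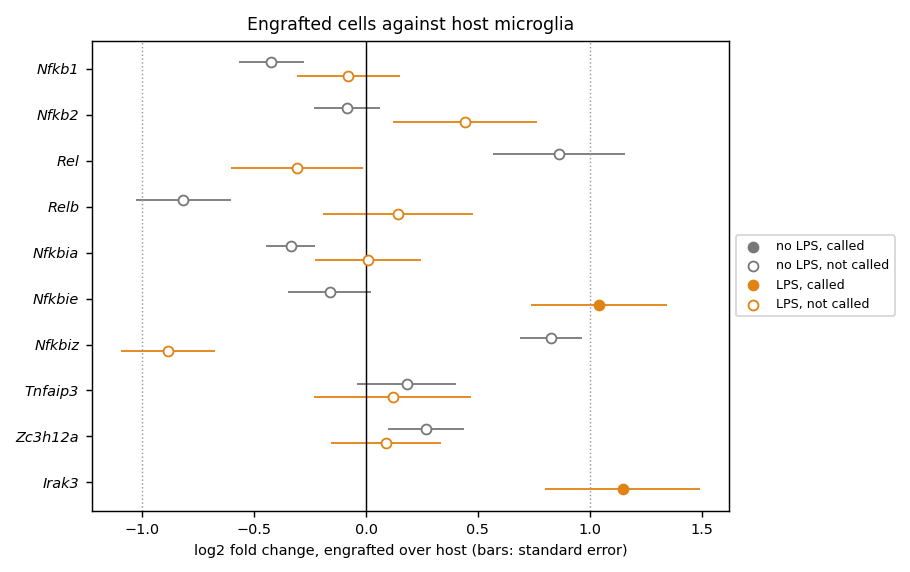
Log2 fold change of engrafted cells over host microglia (horizontal axis, bars are standard errors) without LPS (grey) and after LPS (orange); filled points were called, and Irak3 has no grey point because it was below the filter on low counts. The 2 points of Nfkbiz lie at 0.83 and -0.88, on opposite sides of 0.

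The other genes of the pathway were taken from 5 lists that were drawn up with earlier results of these data known. Of all genes tested, 10.2% were called higher and 11.3% lower with LPS in engrafted cells, and 7.66% and 10.4% in host microglia. Among 4 tested genes of other subunits and nuclear or atypical IκB proteins, 2 were called higher with LPS in engrafted cells, and 1 was called higher and 1 lower in host microglia. Bcl3, a nuclear IκB that binds p50 and p52, rose in both, with log2 fold changes of 2.65 (SE 0.28, adjusted p = 3.35e-07, edgeR) and 2.59 (SE 0.21, adjusted p = 3.97e-09, edgeR). Nfkbib, which encodes IκBβ, rose by 1.25 in engrafted cells (adjusted p = 6.53e-05, edgeR) and stood at 0.53 in host microglia (adjusted p = 0.0641, edgeR). Nfkbid, which encodes IκBNS, fell by 1.17 on the log2 scale in host microglia (adjusted p = 3.01e-06, edgeR) and stood at -0.70 in engrafted cells (adjusted p = 0.00765, edgeR).

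Of 6 genes of the IκB kinases and their relatives, Ikbke was the one called in each population. It encodes IKKε, a kinase of the interferon and NF-κB pathways, and was counted at 5.60 ± 3.10 and 3.04 ± 1.55 CPM (SD, n = 4) in unchallenged engrafted cells and host microglia and at 204 ± 66.2 and 79.3 ± 49.5 CPM after LPS. Its log2 fold changes were 5.17 (adjusted p = 4.66e-10, edgeR) and 4.56 (adjusted p = 1.4e-07, edgeR). In both populations Ikbke passed the filter on low counts through its LPS libraries alone, so these calls are not independent of the filter. Among the adaptors and kinases between receptor and IκB kinases, Myd88 was the 1 gene of 16 called higher in engrafted cells, at 1.26 (adjusted p = 2.93e-05, edgeR), and Ticam2, which encodes the adaptor TRAM, was the 1 of 15 called lower in host microglia, at -1.09 (adjusted p = 0.00200, edgeR). Of all genes tested, 10.2% (engrafted) and 7.66% (host) were called higher, and 10.4% were called lower in host microglia. The counts of these 2 lists are therefore not read as results about the lists.

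Of 17 further negative regulators tested, 4 were called higher in each population and none lower, beside 10.2% (engrafted) and 7.66% (host) of all genes called higher. Tnip2, whose product ABIN-2 binds A20, rose by 1.77 in engrafted cells (adjusted p = 2.01e-05, edgeR) and 1.47 in host microglia (adjusted p = 9.56e-06, edgeR). Tnip1, which encodes the A20 partner ABIN-1, rose by 1.79 (adjusted p = 0.000192, edgeR) and 1.00 (adjusted p = 0.00345, edgeR), the latter at the fold threshold. N4bp1, another restraint of NF-κB signalling, rose by 2.32 (adjusted p = 2.75e-07, edgeR) and 1.19 (adjusted p = 0.000165, edgeR). Zc3h12c, a relative of Zc3h12a, rose by 2.07 in host microglia (adjusted p = 0.000178, edgeR) and stood at 0.86 in engrafted cells (adjusted p = 0.0629, edgeR).

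The NF-κB target genes had 21 of 24 tested genes called higher and 1 lower in engrafted cells, and 20 of 25 called higher and none lower in host microglia. Of all genes tested, 10.2% and 7.66% were called higher in these comparisons. A gene with few reads without LPS entered a test only where its LPS libraries were high, and was then likely to be called higher. Lcn2 in host microglia, at 9.72 CPM without and 163 CPM with LPS, was such a gene. The list was also drawn up with earlier results known, so that these counts are no test of it. Saa3, an acute-phase gene, rose by 7.92 in engrafted cells (adjusted p = 9.16e-14, edgeR) and 4.59 in host microglia (adjusted p = 1.79e-08, edgeR), and the chemokine gene Ccl5 by 6.47 (adjusted p = 1.54e-11, edgeR) and 3.68 (adjusted p = 2.35e-08, edgeR). Lcn2, which encodes the iron-siderophore binding lipocalin 2, rose by 5.69 (adjusted p = 9.21e-10, edgeR) and 3.95 (adjusted p = 5.86e-07, edgeR). Cd83, an activation marker, was the target called lower, at -1.11 in engrafted cells (adjusted p = 0.00243, edgeR). The interaction was called for 4 targets in the direction of a higher response in engrafted cells and for 1 in the opposite direction, of 27 tested. Among all 8847 genes tested, 217 were called in the first direction and 221 in the second. Saa3 and Ccl5 led the first with 3.33 (adjusted p = 0.000134, edgeR) and 2.79 (adjusted p = 0.000502, edgeR), and Bcl2a1b, 1 of several near-identical A1 genes between which reads could be split, was the second at -1.01 (adjusted p = 0.0398, edgeR). Bcl2a1a, another A1 gene of the list, had an interaction of 0.037 (adjusted p = 0.976, edgeR), with log2 fold changes with LPS of 2.15 in engrafted cells and 2.11 in host microglia. In the other 4 lists, no gene was called in the interaction. Monocyte markers other than Ccr2 increased in the engrafted libraries together with the genes that responded more strongly there, and their part was not tested. Ccr2 was lower with LPS in these libraries, at 31.7 to 62.5 CPM against 84.6 to 227 CPM without LPS.

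**Figure D4:**
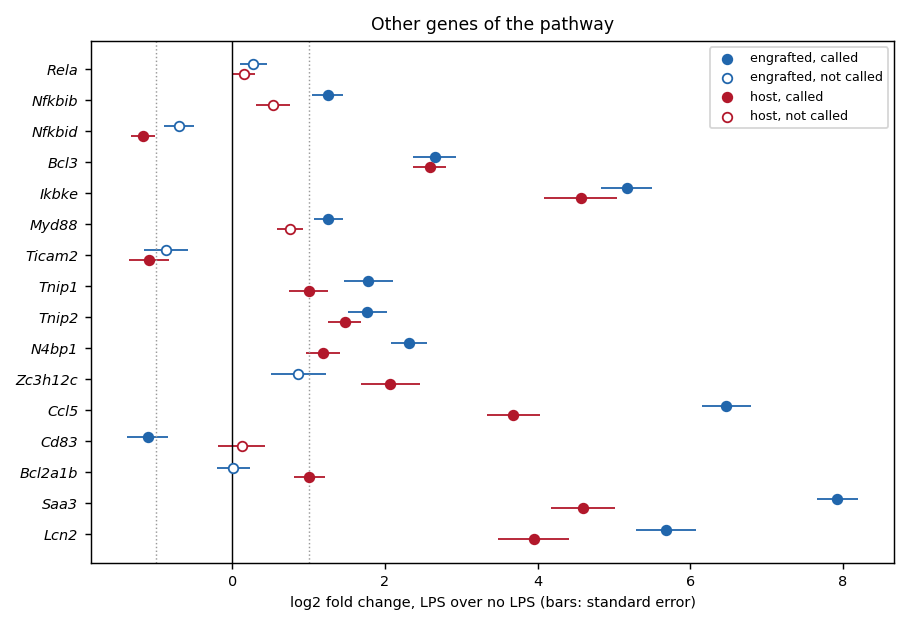
Log2 fold change with LPS (horizontal axis, bars are standard errors) of the other named pathway genes in engrafted cells (blue) and host microglia (red); filled points were called, open points were not, and dotted lines mark a 2-fold change. Saa3 lies furthest to the right in both populations, at 7.92 and 4.59, and Rela close to 0.

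For each gene, the 3793 genes that averaged 50 CPM or more were ranked by the root mean square difference of log2(CPM + 1) over the 16 libraries, each gene centred on its own mean. The nearest to Zc3h12a was Mvp, at 0.20 where Zc3h12a itself had a standard deviation of 0.91, followed by Egln2 at 0.24. Nfkbia lay nearest to Ptpn1 (0.20) and Mapkapk2 (0.23), with a standard deviation of 0.65. Nfkbie and Nfkb2 shared Tapbp as their nearest gene (0.26 and 0.31, beside standard deviations of 0.58 and 0.61). Nfkbiz lay nearest to Evi2b (0.27 beside 0.54). The nearest to Tnfaip3 was Rnf149, at 0.38 beside a standard deviation of 1.32. That to Relb was Pik3r5 (0.35 beside 0.83) and that to Irak3 was Dtx2 (0.45 beside 1.14). Nfkb1 and Rel varied least themselves, and their nearest genes were Ykt6 (0.20 beside 0.36) and Gatm (0.31 beside 0.44). These values describe likeness over 16 libraries that share 4 groups and carry no test.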

How the data were processed

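RNA of engrafted cells and host microglia of 8 chimeras was sequenced from libraries made by a derivation of MARS-seq, which captures polyadenylated RNA at its 3′ end. The authors mapped the reads to mm9 with HISAT (version 0.1.5 per the labels, a later one per the methods), counted uniquely mapped reads per RefSeq gene with HOMER and deposited raw read counts, without normalization. Gene positions come from this table and count from 1. Removal of PCR duplicates is not given in the sources used here. Replicate libraries came from separate mice and differed by 1.98 to 8.64 times the counting noise (chi-square per degree of freedom, 24 pairs), so none was a copy.

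Groups followed the sample titles. With edgeR 4.0.16 (R 4.3.3), genes were filtered (minimum count 10, minimum total 15), scaled by TMM and tested by quasi-likelihood with Benjamini-Hochberg adjustment over all genes, for engrafted against host cells without and with LPS, LPS within each population and their interaction. The script was tested on simulated data. The standard error is the absolute fold change over the root of F. A member under the filter was tested on log2(CPM + 1) by exact permutation, two-sided. Alternatives were RLE factors, library totals, DESeq2 1.42.0, other filters, adjusted p alone, limma 3.58.1 on the study's log2 scale (reads scaled to 10000000, plus 34), a joint fit, the mouse as a block and leaving out each library.

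Both populations came from the same animal, so mouse numbers pair the libraries. After removal of the group means, Pearson's r between both libraries of mice 1 to 8 was 0.123, 0.0152, 0.194, 0.116, 0.0184, -0.0335, 0.0521 and 0.0772 across genes. The members and all gene lists were chosen with earlier results of these data known. Named were the members, Rela, the 2 genes per list and direction with the largest called change (LPS in each population and the interaction), and the 2 genes nearest in pattern to a member.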

Additional observations from a re-analysis of the deposited data

Results flagged for a closer look

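Nfkbiz responded to LPS differently in both populations, with an interaction of -1.71 on the log2 scale (adjusted p = 8.34e-05, edgeR), and in host microglia lay above its level in the engrafted cells of the same animal in 4 of 4 LPS mice and below it in 4 of 4 unchallenged mice.

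In unchallenged host microglia, mouse 5 stood apart from the other libraries in Nfkb1, at 93.7 CPM against 139 to 144 CPM. A gap at or past the limit for flagging is expected by chance in about 1 of 20 groups of 4. This gap, 0.90 of the range of the 4 libraries, was past that limit, and 40 sets of member and group were examined.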

How the results depend on the processing

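The calls of Tnfaip3, Nfkbia, Relb, Irak3 and Zc3h12a with LPS in engrafted cells, those of Tnfaip3, Nfkbiz, Irak3 and Zc3h12a in host microglia and the interaction of Nfkbiz held under each alternative that tested them, of which the filter of at least 10 reads in every library left Irak3 out. With 1 library left out, 5 to 7 genes were called higher with LPS in engrafted cells and 4 to 6 in host microglia, 0 to 1 between populations without LPS, 0 to 2 after LPS and 0 to 1 in the interaction. Over all genes, the same fits called 735 to 856 and 631 to 716 higher with LPS. Between populations they called 515 to 623 higher without LPS and 509 to 588 after LPS, and in the interaction 166 to 242. By adjusted p alone, 2 genes were higher and 3 lower in engrafted than in host cells without LPS, 1 was lower after LPS, and 7 were higher with LPS in host microglia. Among all genes tested, that rule gave 1096 higher and 1102 lower of 8042, 598 lower of 7843 and 1581 higher of 8238. Without LPS, 1 gene was higher in engrafted cells with no filter or with all libraries in one fit. After LPS, library totals and limma each called 0 higher and 1 lower, and the filter of at least 10 reads called 1 higher. In the interaction, RLE factors, DESeq2, the filter of at least 10 reads and the mouse as a replicate block each called 1 gene higher (Nfkbie, at 1.18 with the block), and no filter called 2 (Nfkbie and Relb). The block changed no other call of the 10 genes. With it, Nfkb1 without LPS left the adjusted p threshold. The interaction of Relb came below that threshold with the block (0.94, adjusted p = 0.0377, edgeR) but stayed under 2-fold. The cause of these shifts was not tested.

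Signs turned for small values. Between populations after LPS, library totals gave -0.021 for Tnfaip3, -0.13 for Nfkbia, -0.0050 for Relb and -0.058 for Zc3h12a, limma gave -0.017, -0.14, -0.038 and -0.14, and Nfkbia was at -0.029 with at least 10 reads and at -0.00099 in the joint fit. The block put the interaction of Tnfaip3 at 0.012, and no filter put Nfkb1 with LPS in engrafted cells at 0.014. With 1 library left out, the difference after LPS ranged from -0.28 to 0.074 for Nfkb1, -0.14 to 0.18 for Nfkbia, -0.21 to 0.45 for Relb, -0.15 to 0.40 for Tnfaip3 and -0.12 to 0.27 for Zc3h12a. Signs also turned for the difference without LPS of Tnfaip3 (-0.078 to 0.38), the change with LPS of Nfkb1 in engrafted cells (-0.24 to 0.10) and of Nfkbie in host microglia (-0.41 to 0.074), and the interactions of Tnfaip3 (-0.30 to 0.23) and Irak3 (-0.42 to 0.0048).

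Over all genes, at least 10 reads in every library reduced the calls higher and lower to 230 and 172 without LPS, 245 and 136 after LPS, 385 and 431 with LPS in engrafted cells, 381 and 490 in host microglia and 141 and 110 in the interaction, with fewer genes tested. No filter raised them to 895 higher without LPS, 857 higher after LPS and 1337 lower with LPS in engrafted cells. Adjusted p alone gave 1096 and 1102 without LPS, 598 lower after LPS, 1477 and 1470 with LPS in engrafted cells and 1581 and 1688 in host microglia. Depth limited Irak3 and Rel most, with as few as 3 and 6 reads in a library.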
